A study of Homo sapiens with 12 samples.

Results

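NRF2, the product of NFE2L2, is the main transcription factor of the antioxidant response, and 10 genes of this response were followed here in retinoblastoma cells exposed to THZ1. The genes are NFE2L2 itself, its inhibitor KEAP1, the glutathione synthesis genes GCLC, GCLM and GSS, the reductases GSR and TXNRD1, the cystine transporter SLC7A11, and the classical NRF2 targets HMOX1 and NQO1. They were chosen by symbol, and all 10 were found among the 19974 Ensembl genes of the deposited count table. THZ1 binds covalently to the transcription kinase CDK7, and also to CDK12 and CDK13. The cells were 2 established lines from human retinoblastoma, WERI-Rb-1 (called WERI below) and Y79, both grown in RPMI medium with serum. Both are given as wild type in the labels, but their RB1 and MYCN mRNA levels differed. The 4 groups were WERI in 0.1% DMSO, WERI in 50 nM THZ1, Y79 in 0.1% DMSO and Y79 in 50 nM THZ1, each kept for 12 h, with 3 biological samples (n = 3) in each. DMSO is the solvent, and it served as the control. Each line stands for 1 tumour and 1 time point was taken, so the spread below is that between cultures of a line.

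In unstressed cells, KEAP1 binds NRF2 and, as the adaptor of a ubiquitin ligase built on CUL3, hands it to the proteasome. Oxidants and electrophiles modify cysteines of KEAP1, NRF2 then builds up, pairs with a small MAF protein and binds antioxidant response elements (AREs), a short DNA motif close to its target genes. Glutathione is made from cysteine in 2 enzymatic steps, the first by glutamate-cysteine ligase (a catalytic subunit from GCLC and a modifier subunit from GCLM) and the second by glutathione synthetase (GSS). Glutathione reductase (GSR) returns oxidised glutathione to its reduced form. Photoreceptors, the retinal cells to which retinoblastoma is related, work under high oxygen use and light, and glutathione is one of their main protectants.

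The motif that ties these genes together is shown first, since the members that carry it can then be read against their RNA levels. RefSeq promoter windows (GRCh38.p14, 250 bases before to 50 bases after a transcription start) were found for 6 of the 10 genes, as 9 windows: GCLM, GCLC, NQO1, and a pair each for NFE2L2, TXNRD1 and KEAP1. The ARE core, TGACNNNGC, was searched on both strands and lay in windows of 3 genes, KEAP1, GCLM and TXNRD1. Of all 35116 promoter windows of the same length, 13.3% held it. That share counts windows and not genes, and a gene with a pair of windows had a further chance of a match. The AP-1 site, TGANTCA, which can share bases with an ARE core, lay in none of the 9 windows and in 7.71% of all windows. A match is a description of letters and not evidence of binding, and elements outside these windows were not searched. Each sequence below runs 5′ to 3′ on the strand of the gene, with the core in capitals. Positions are counted from the transcription start, and a core that begins with GC is read on the opposite strand.
KEAP1, chr19:10502807-10502835, minus strand, core at -54 to -46: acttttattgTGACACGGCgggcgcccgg
KEAP1, chr19:10502784-10502812, minus strand, core at -31 to -23: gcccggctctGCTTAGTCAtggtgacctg
GCLM, chr1:93909446-93909474, minus strand, core at -34 to -26: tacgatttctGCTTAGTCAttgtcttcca
TXNRD1, upstream start, chr12:104215670-104215698, plus strand, core at -99 to -91: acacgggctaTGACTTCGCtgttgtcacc
TXNRD1, downstream start, chr12:104286920-104286948, plus strand, core at -102 to -94: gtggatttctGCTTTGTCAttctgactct
A further TXNRD1 match, which begins at -8 and runs up to the upstream start, is not shown. Both KEAP1 cores lay in the window of its downstream start (chr19:10502722-10503021). The window of its upstream start (chr19:10503307-10503606) had no match. The GCLM element and the second KEAP1 element had all 9 core bases in common, within an identical run of 13 bases. GCLM and the downstream TXNRD1 element had 8 of 9 core bases in common and 19 of 29 bases in all. The 3 genes with a core had log2 changes after THZ1 of -2.51 (KEAP1), -0.80 (GCLM) and -0.34 (TXNRD1) in WERI, and of -2.51, -0.83 and -0.70 in Y79, as set out below. Genes with a window but no core were at -1.77 (GCLC), -1.32 (NFE2L2) and 0.89 (NQO1) in WERI. In Y79 they were at -1.11, -1.29 and 0.67. Genes without a core thus moved both ways, and a link between the core and the change was not tested.

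The libraries held 29677575 counts at the least and 37433574 at the most. The 13 mitochondrially encoded mRNAs, made by a separate polymerase, took 3.74 to 4.46% of counts in DMSO cultures and 8.44 to 11.2% after THZ1. Counts were scaled by TMM factors, which bring a trimmed mean of the log ratios between libraries near 0, and CPM below are TMM-scaled counts-per-million. The median change of all 14865 tested genes was -0.11 on the log2 scale in WERI and -0.09 in Y79. All 8 photoreceptor lineage markers were detected, and their summed level was 2580 to 2690 CPM in WERI controls and 1740 to 1780 CPM after THZ1. The markers did not move together: in WERI OTX2 (909 to 956 and 318 to 339 CPM, DMSO and THZ1) and THRB (558 to 608 and 140 to 142 CPM) made most of the decrease of the sum. RCVRN (153 to 161 and 293 to 340 CPM), NEUROD1 (389 to 395 and 565 to 584 CPM), ARR3 and NRL lay higher. In Y79 the sum was 1560 to 1570 CPM in controls and 890 to 975 CPM after THZ1. Of 8 Müller glia and pigment epithelium markers, 5 passed the filter, and TYR was at 0 in every library. The list summed to 162 to 169 and 197 to 220 CPM in WERI and to 496 to 519 and 441 to 498 CPM in Y79 (DMSO and THZ1). GLUL (485 to 513 and 427 to 453 CPM) made most of the sum in Y79. In WERI most came from GLUL (71.6 to 75.9 and 72.6 to 78.2 CPM) and SLC1A3 (80.2 to 90.9 and 102 to 114 CPM). BEST1, which shares exon bases with FTH1, was at 3.19 to 10.5 and 5.59 to 38.2 CPM in WERI. Stromal, vessel and blood markers summed to 25.6 to 29.3 and 56.7 to 57.6 CPM in WERI, and to 2.94 to 4.52 and 7.22 to 8.02 CPM in Y79. COL1A1 made most of that sum in WERI (23.2 to 25.8 and 50.8 to 53.5 CPM). The lines, both labelled wild type, differed in RB1, at 0 to 0.087 and 0 to 0.175 CPM in WERI (DMSO and THZ1). In Y79 RB1 was at 48.7 to 50.8 and 86.5 to 113 CPM. MYCN was at 323 to 345 and 246 to 265 CPM in WERI. In Y79 MYCN was at 1210 to 1260 and 688 to 724 CPM. The part of these markers, of RB1 and of MYCN in the results was not tested. In bulk RNA fewer cells of a type and less RNA per cell cannot be told apart.

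After 12 h of THZ1, most of the 10 genes were lower in both lines on the TMM scale. KEAP1 was the most reduced of them, and 2 genes, GSS and NQO1, were higher. A longer list of other NRF2 target genes, described further below, did not share this direction, with a median change of 0.22 in WERI and 0.70 in Y79. In WERI, 8 of the 10 genes fell and 2 rose by edgeR's quasi-likelihood test at an adjusted p under 0.05. The background was large, since 64.8% of all tested genes were called in WERI, 37.2% lower and 27.7% higher. In Y79, 7 genes fell, 2 rose and SLC7A11 missed the threshold, against a background of 68.3% called, 38.5% lower and 29.9% higher. The median change of the 10 genes was -0.76 in WERI and -0.79 in Y79. Values of the treated and control cultures did not overlap for all 10 genes in WERI and for 9 in Y79, where 75.9% and 68.9% of all genes did not overlap either. Most genes were thus called, and the number of calls says little about these 10.

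**Figure D1:**
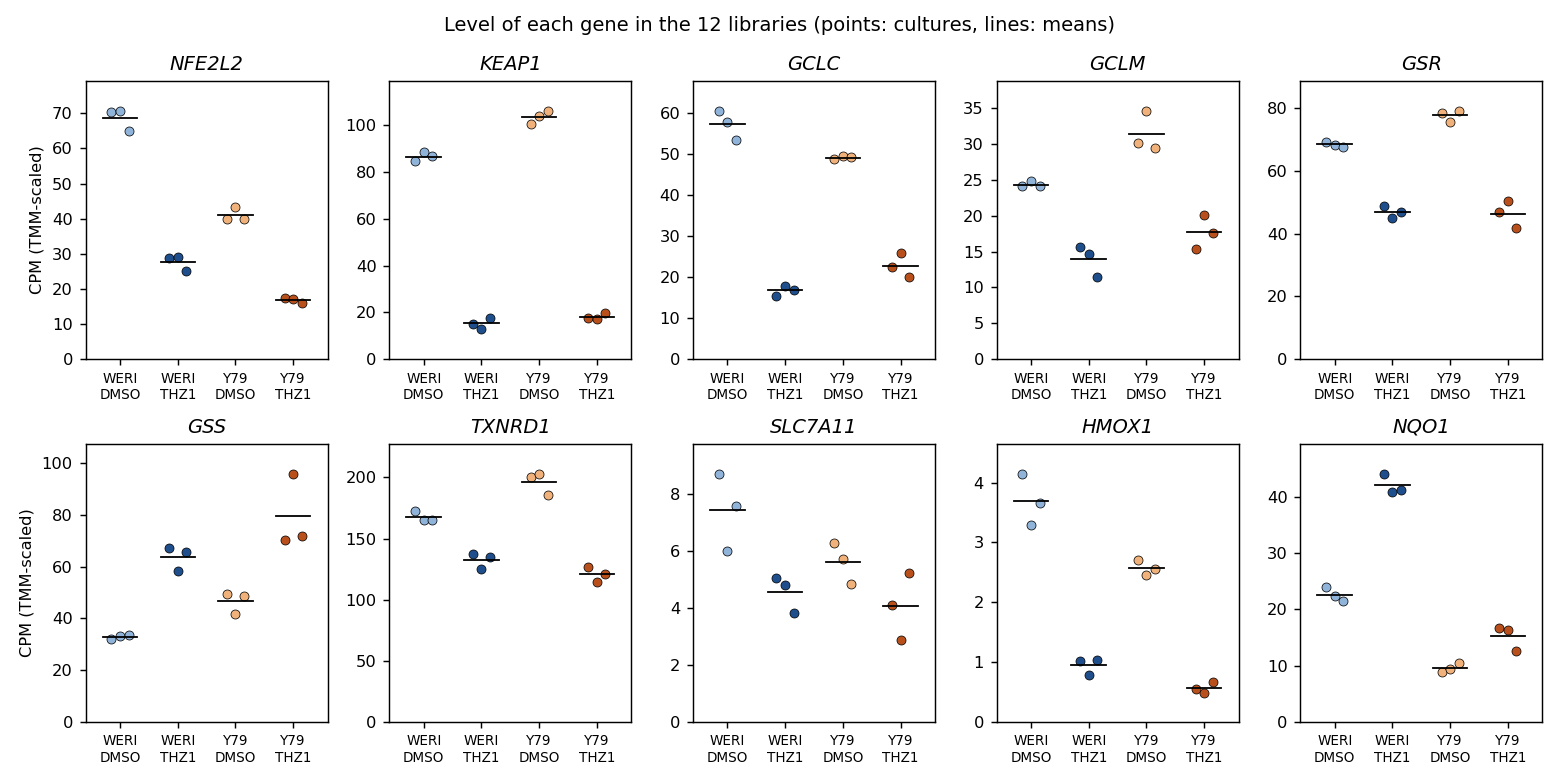
Level of each of the 10 genes in every culture, as TMM-scaled CPM, with 1 panel per gene and its own axis from 0. Points are cultures, lines are group means (n = 3). KEAP1 falls from 84.5 CPM or more to 19.9 CPM or less in both lines, while GSS and NQO1 lie higher after THZ1 on this scale, a direction that turns when libraries are scaled to mitochondrial mRNAs.

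NFE2L2 (ENSG00000116044, chr2:177227595-177392697, minus strand, GENCODE v29 on GRCh38, as for all gene positions here) encodes NRF2. Its level was 70.3, 70.7 and 65.0 CPM in the WERI control cultures and 28.7, 29.0 and 25.0 CPM after THZ1. In Y79 it was 40.0, 43.3 and 39.9 CPM in controls and 17.3, 17.0 and 15.9 CPM after THZ1. Every treated culture lay below every control culture of its line, and Y79 lay below WERI in both conditions. The fall was 2.49-fold in WERI (log2 -1.32 ± 0.0813 SE, adjusted p = 1.01e-08) and 2.45-fold in Y79 (log2 -1.29 ± 0.0833, adjusted p = 9.24e-09). In WERI, 11.6% of all genes had a more negative change, and in Y79 15.5%. NFE2L2 shares 1054 exon bases, 17.6% of its exon length, with AC019080.1 on the same strand, so that reads there cannot be assigned to 1 of them with certainty.

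KEAP1 (ENSG00000079999, chr19:10486120-10503741, minus strand), the sensor that holds NRF2 back, had the largest fold decrease of the 10 genes in both lines. It measured 84.5, 88.5 and 86.7 CPM in WERI controls and 15.1, 13.0 and 17.7 CPM after THZ1. Y79 controls had 100.5, 104 and 106 CPM, and treated Y79 cultures 17.7, 17.0 and 19.9 CPM. Treated and control groups were far apart, and the treated cultures of the 2 lines overlapped. The decrease was 5.68-fold in WERI (log2 -2.51 ± 0.101, adjusted p = 3.75e-10) and 5.70-fold in Y79 (log2 -2.51 ± 0.101, adjusted p = 1.64e-10). Few genes were reduced further, 1.33% of all tested genes in WERI and 2.86% in Y79.

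GCLC (ENSG00000001084, chr6:53497341-53616970, minus strand) encodes the catalytic subunit of glutamate-cysteine ligase, the rate-limiting enzyme of glutathione synthesis. WERI controls had 60.5, 57.7 and 53.3 CPM of GCLC and treated WERI cultures 15.3, 17.9 and 16.9 CPM. Y79 controls had 48.7, 49.5 and 49.2 CPM, and treated Y79 cultures 22.4, 25.9 and 20.0 CPM. GCLC fell in both lines without overlap, and the treated WERI cultures ended below the treated Y79 cultures. It fell 3.42-fold in WERI (log2 -1.77 ± 0.099, adjusted p = 4.23e-09) and 2.16-fold in Y79 (log2 -1.11 ± 0.0975, adjusted p = 2.02e-07).

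GCLM (ENSG00000023909, chr1:93885205-93909456, minus strand), the modifier subunit of the same enzyme, was lower after THZ1 as well. It stood at 24.1, 24.8 and 24.1 CPM in WERI controls and at 15.7, 14.7 and 11.5 CPM after THZ1. In Y79 it stood at 30.1, 34.6 and 29.5 CPM in controls and at 15.4, 20.1 and 17.6 CPM after THZ1. Treated and control cultures did not overlap in either line. The decrease was 1.75-fold in WERI (log2 -0.80 ± 0.127, adjusted p = 8.06e-05) and 1.78-fold in Y79 (log2 -0.83 ± 0.127, adjusted p = 5.27e-05).

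GSS (ENSG00000100983, chr20:34928433-34956027, minus strand), which joins glycine to the dipeptide made by glutamate-cysteine ligase, moved the other way. Its level was 31.9, 33.1 and 33.7 CPM in WERI controls and 67.2, 58.5 and 65.6 CPM after THZ1. In Y79 it was 49.6, 41.7 and 48.8 CPM in controls and 70.5, 96.1 and 72.0 CPM after THZ1, with replicate 2 the highest. All treated cultures lay above the controls of their line. On the TMM scale the rise was 1.94-fold in WERI (log2 0.95 ± 0.114, adjusted p = 5.47e-06) and 1.70-fold in Y79 (log2 0.77 ± 0.113, adjusted p = 3.63e-05). The first and the second step of glutathione synthesis were thus opposite in sign on this scale, in both lines.

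GSR (ENSG00000104687, chr8:30678061-30727999, minus strand), glutathione reductase, showed a smaller decrease. WERI controls had 69.3, 68.3 and 67.7 CPM and treated WERI cultures 48.8, 44.9 and 46.8 CPM. Y79 controls had 78.5, 75.7 and 79.2 CPM and treated Y79 cultures 47.0, 50.4 and 41.7 CPM. The treated and control groups did not overlap, while the treated cultures of the 2 lines did. GSR fell 1.46-fold in WERI (log2 -0.55 ± 0.0736, adjusted p = 1.69e-05) and 1.68-fold in Y79 (log2 -0.75 ± 0.074, adjusted p = 6.8e-07).

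TXNRD1 (ENSG00000198431, chr12:104215779-104350305, plus strand), the cytosolic thioredoxin reductase that runs in parallel to the glutathione system, was the most abundant of the 10 genes. It had 172, 165 and 165 CPM in WERI controls and 137, 125 and 135 CPM after THZ1. Y79 controls had 200, 203 and 186 CPM and treated Y79 cultures 127, 114 and 121 CPM. The decrease was small in WERI, but no treated culture reached a control. TXNRD1 fell 1.27-fold in WERI (log2 -0.34 ± 0.0661, adjusted p = 0.000488) and 1.63-fold in Y79 (log2 -0.70 ± 0.0665, adjusted p = 4.28e-07).

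SLC7A11 (ENSG00000151012, chr4:138164097-138242349, minus strand) encodes xCT, the transport subunit that imports cystine in exchange for glutamate. It was low in these cells, at 8.73, 6.01 and 7.59 CPM in WERI controls and 5.04, 4.81 and 3.83 CPM after THZ1. In Y79 it had 6.28, 5.72 and 4.84 CPM in controls and 4.11, 2.86 and 5.24 CPM after THZ1. The Y79 groups overlapped, since the third treated culture lay above the lowest control, while the WERI groups did not. The WERI decrease was 1.63-fold (log2 -0.71 ± 0.222, adjusted p = 0.0134). It was no longer called without WERI DMSO replicate 1 (-0.58, adjusted p = 0.0636) or without WERI THZ1 replicate 3 (-0.60, adjusted p = 0.0604). The Y79 value was -0.46 ± 0.225 (adjusted p = 0.0907), and it passed the threshold without Y79 THZ1 replicate 3 (-0.69, adjusted p = 0.0203). Its partner SLC3A2, the heavy chain that carries xCT to the membrane, was abundant and not called, with -0.12 (adjusted p = 0.188) in WERI and -0.14 (adjusted p = 0.107) in Y79. It was called lower in both lines without Y79 THZ1 replicate 2 (-0.15, adjusted p = 0.0138 and -0.25, adjusted p = 0.00069), with library size (-0.57 and -0.71) and with mitochondrial scaling (-2.02 and -1.85).

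HMOX1 (ENSG00000100292, chr22:35380361-35394214, plus strand), the stress-induced haem oxygenase, was low in controls and fell in both lines. The 3 WERI controls had 177, 135 and 168 counts, or 4.15, 3.28 and 3.65 CPM, and the treated cultures 29, 23 and 30 counts, or 1.01, 0.779 and 1.04 CPM. Y79 controls had 114, 98 and 106 counts, or 2.71, 2.46 and 2.55 CPM, and treated Y79 cultures 15, 10 and 16 counts, or 0.541, 0.484 and 0.665 CPM. The groups were well apart despite the small counts. HMOX1 fell 3.91-fold in WERI (log2 -1.97 ± 0.239, adjusted p = 6.49e-06) and 4.53-fold in Y79 (log2 -2.18 ± 0.255, adjusted p = 3.72e-06).

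NQO1 (ENSG00000181019, chr16:69706996-69726951, minus strand), a quinone reductase often used as a readout of NRF2 activity, lay higher after THZ1. WERI controls had 24.1, 22.4 and 21.6 CPM and treated WERI cultures 44.2, 40.9 and 41.3 CPM. Y79 controls had 8.89, 9.31 and 10.5 CPM and treated Y79 cultures 16.7, 16.4 and 12.6 CPM. No treated culture overlapped a control, and even treated Y79 cultures stayed below untreated WERI. The rise on the TMM scale was 1.86-fold in WERI (log2 0.89 ± 0.11, adjusted p = 7.36e-06) and 1.59-fold in Y79 (log2 0.67 ± 0.115, adjusted p = 0.000143). NQO1 shares 575 exon bases, 17.7% of its exon length, with AC092115.2 on the opposite strand, and the libraries do not keep strand. Both HMOX1 and NQO1 are textbook NRF2 targets, and they moved in opposite directions on this scale.

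**Figure D2:**
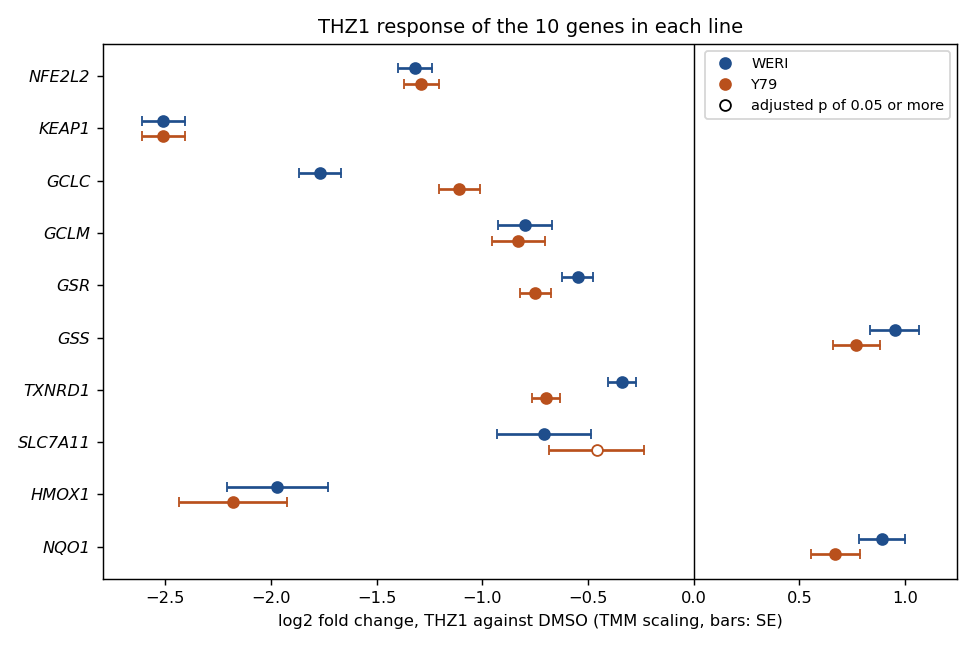
Change of each gene after THZ1 against DMSO in WERI and Y79, as log2 fold change with TMM scaling and bars of 1 SE. Filled points passed an adjusted p of 0.05; the open point is SLC7A11 in Y79. KEAP1 lies at -2.51 in both lines, and GCLC and TXNRD1 are the 2 genes whose changes differ between the lines by test.

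The raw changes of GSS and NQO1 depended on how libraries were put on a common scale, and the changes of the other genes did not change sign. With library size alone, without TMM factors, the median of all genes was -0.56 in WERI and -0.65 in Y79. GSS was then 0.50 in WERI (called) and 0.19 in Y79 (adjusted p = 0.0805), and NQO1 0.45 (called) and 0.10 (adjusted p = 0.436). With the 13 mitochondrial mRNAs as the common scale, the median of all genes was -2.01 and -1.80, GSS became -0.95 and -0.94, and NQO1 -1.0 and -1.04, all called lower. The share of rises among called genes was 42.7% in WERI and 43.7% in Y79 with TMM, 21.8% and 20.7% with library size, and 0.826% and 2.27% with mitochondrial mRNAs. A change of scale shifts all genes alike, so that a gene's distance from the median gene is fixed by construction. In WERI with TMM this distance was -2.39 for KEAP1 and 1.07 for GSS. Lower members stayed lower under all 3 scalings, and SLC7A11 in Y79 was called lower under both alternatives, at -1.01 and -2.17. RNA per cell was not measured, so a loss of all mRNA and a gain of mitochondrial mRNA cannot be told apart here.

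**Figure D3:**
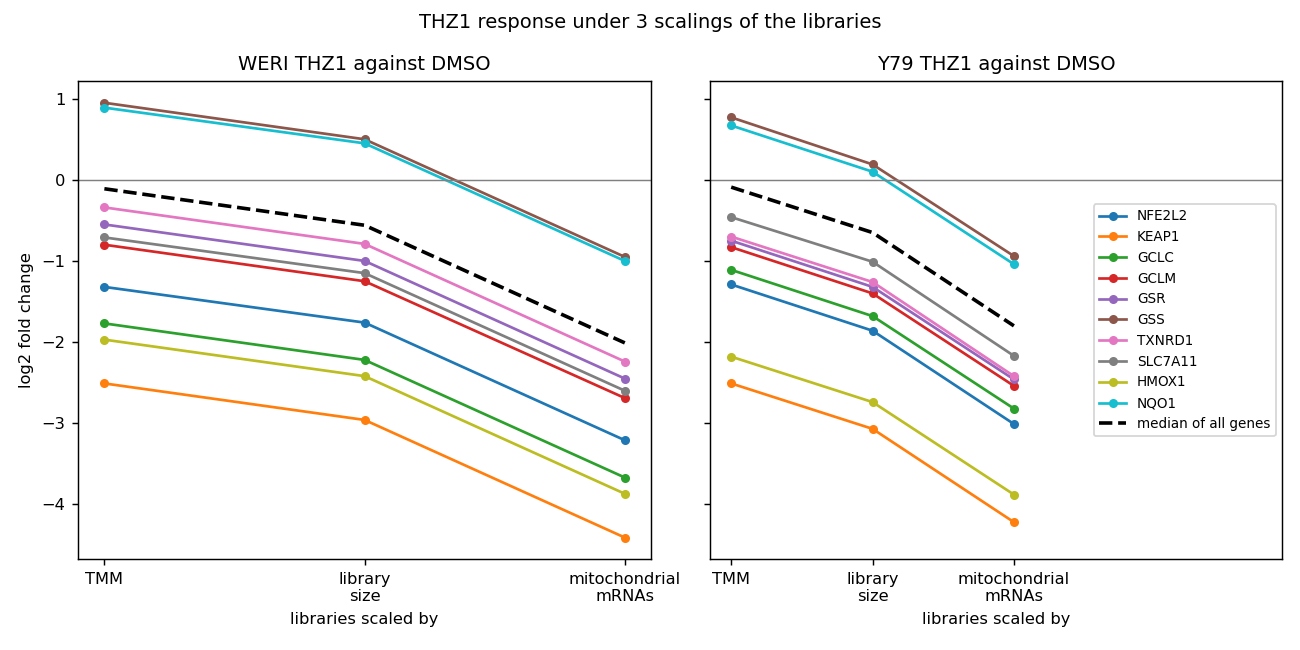
Log2 fold change of the 10 genes after THZ1 under 3 ways of scaling the libraries, with the median of all tested genes as a dashed line. All curves shift down together, and GSS and NQO1 pass from above 0 with TMM to -0.95 and -1.0 in WERI with mitochondrial mRNAs, as the median gene moves to -2.01.

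The ratio of 2 genes within a library does not depend on scaling, and 3 such ratios were compared, each by a two-sided exact permutation test whose smallest p with 3 against 3 cultures is 0.1. KEAP1 counts over NFE2L2 counts were 1.20, 1.25 and 1.33 in WERI controls and 0.526, 0.447 and 0.708 after THZ1. In Y79 they were 2.52, 2.40 and 2.66 in controls and 1.02, 0.997 and 1.25 after THZ1. Every treated culture had less KEAP1 mRNA for each NFE2L2 mRNA than every control of its line. The ratio fell 2.29-fold in WERI and 2.33-fold in Y79 (exact p = 0.1 in each, the smallest possible). Among the 6 tests of the family none can pass 0.05.

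Counts in these ratios were not divided by gene length, so a ratio can be compared between groups but is not the balance of both mRNAs. GCLM counts over GCLC counts, modifier over catalytic subunit, went from 0.399, 0.430 and 0.451 to 1.02, 0.822 and 0.678 in WERI. In Y79 they were 0.619, 0.699 and 0.600 in controls and 0.685, 0.779 and 0.881 after THZ1, so that 1 treated culture lay within the control range. The ratio was 1.94-fold higher in treated WERI (exact p = 0.1) and 1.22-fold higher in treated Y79 (exact p = 0.2). SLC7A11 over SLC3A2 was -4.55 ± 0.347 (SD) on the log2 scale in WERI controls and -5.13 ± 0.215 after THZ1 (exact p = 0.1). In Y79 it was -4.65 ± 0.232 and -5.00 ± 0.556 (exact p = 0.5), a difference within the spread.

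**Figure D4:**
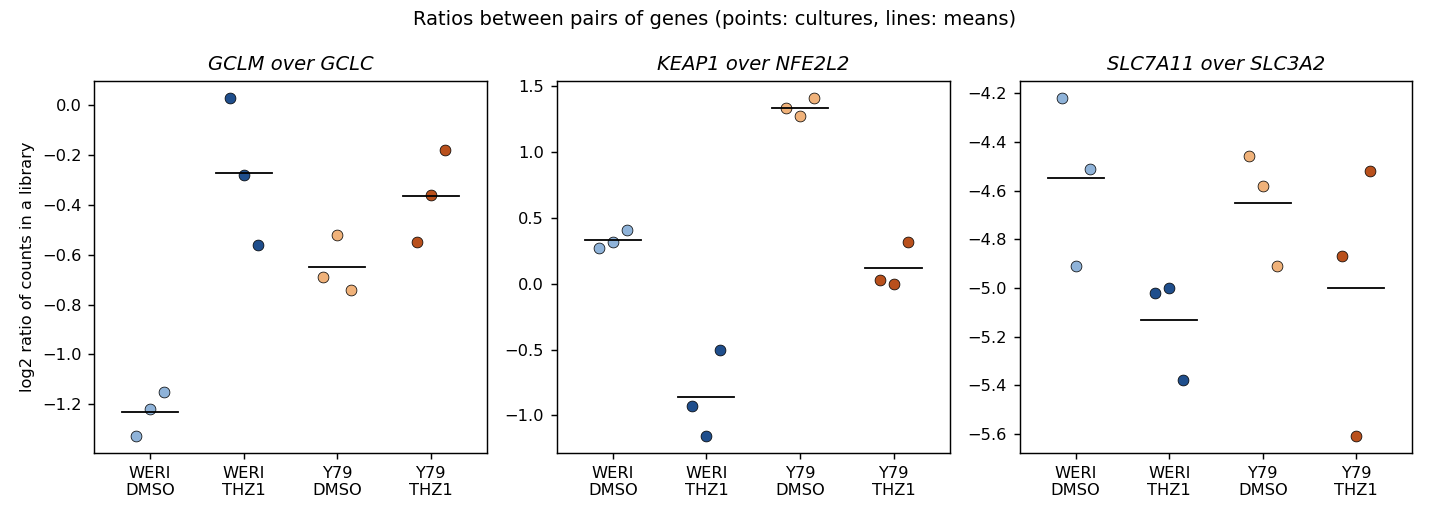
Log2 ratio of the counts of 2 genes within each library: GCLM over GCLC, KEAP1 over NFE2L2 and SLC7A11 over SLC3A2. Points are cultures and lines are group means (n = 3). KEAP1 over NFE2L2 lies lower after THZ1 by 1.20 in WERI and 1.22 in Y79 without overlap, and GCLM over GCLC lies higher in WERI by 0.96.

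The response of the 2 lines was compared by the interaction term of the same model, given as the Y79 change minus the WERI change. GCLC differed by 0.66 (95% interval 0.35 to 0.98, adjusted p = 0.00451), because it fell less in Y79. TXNRD1 differed by -0.36 (95% interval -0.58 to -0.15, adjusted p = 0.0156), because it fell more in Y79, though with mitochondrial scaling the difference was -0.18 and not called (adjusted p = 0.426). These were 2 of 10 genes, and 22.0% of all tested genes were called in this comparison, 8.74% positive and 13.2% negative. For the other 8 genes no difference was detected. The interval was -0.24 to 0.29 for NFE2L2, -0.33 to 0.32 for KEAP1 and -0.44 to 0.39 for GCLM, which still allows moderate differences. Intervals were -0.44 to 0.04 for GSR, -0.55 to 0.18 for GSS and -0.59 to 0.14 for NQO1. They were widest for the low-count genes, at -0.48 to 0.98 for SLC7A11 and -1.0 to 0.58 for HMOX1. Without Y79 THZ1 replicate 2, the library with the lowest TMM factor, GSR (-0.26, adjusted p = 0.0314) and GSS (-0.34, adjusted p = 0.0226) also passed the threshold.

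Before treatment the lines already differed in this system. Y79 in DMSO had less NFE2L2 (log2 -0.74 ± 0.0795, adjusted p = 2.08e-06) and less NQO1 (log2 -1.24 ± 0.113, adjusted p = 3.95e-07) than WERI. GSS was higher in Y79 by 0.51 (adjusted p = 0.00152), GCLM by 0.37 (adjusted p = 0.0197), KEAP1 by 0.26 (adjusted p = 0.027), TXNRD1 by 0.23 (adjusted p = 0.00788) and GSR by 0.18 (adjusted p = 0.0405). These 5 higher and 2 lower genes stand against 64.9% of all genes called, 32.3% higher and 32.6% lower. Cultures of the 2 lines did not overlap for 9 of the 10 genes, as for 77.9% of all genes. GCLC (-0.22, adjusted p = 0.0578), HMOX1 (-0.52, adjusted p = 0.0556) and SLC7A11 (-0.41, adjusted p = 0.123) were not called. GCLC and HMOX1 were called lower in Y79 with DESeq2 (adjusted p = 0.0455 and 0.0267) and with the filter of at least 1 CPM (adjusted p = 0.0451 and 0.0469). They were also called lower with library size, with mitochondrial scaling and with only the compared groups fitted, and SLC7A11 with the last 2 of these. With library size alone 1 gene was higher and 4 were lower, and with mitochondrial scaling none and 5, so the small differences of KEAP1, GCLM, GSR and TXNRD1 depend on the scale. GSS stayed higher, at 0.34 with library size and at 0.22 with mitochondrial scaling, the latter not called (adjusted p = 0.121). The call of KEAP1 was lost in 5 of 12 fits without 1 library, that of GCLM in 3 and that of GSR in 9. Those of NFE2L2 and NQO1 kept their direction and their call under each scaling. Left out singly, each of the WERI DMSO replicates 1, 2 and 3 and of the Y79 DMSO replicates 2 and 3 brought the higher genes to 2 or 3, and Y79 THZ1 replicates 2 and 3 the lower genes to 4.

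In THZ1, Y79 again had less NFE2L2 (-0.72, adjusted p = 4.37e-06) and less NQO1 (-1.47, adjusted p = 6.65e-08) than WERI. HMOX1 was also called lower in Y79 (-0.74, adjusted p = 0.0269), but not without WERI THZ1 replicate 1 or 3 or Y79 THZ1 replicate 1 or 2 (adjusted p from 0.0598 to 0.0822), and not with only the compared groups fitted (adjusted p = 0.142). GCLC was higher in Y79 by 0.44 (adjusted p = 0.00142), GCLM by 0.34 (adjusted p = 0.0329), GSS by 0.32 (adjusted p = 0.0243) and KEAP1 by 0.25 (adjusted p = 0.0428). The KEAP1 call was lost in 10 of 12 fits without 1 library, all but those without WERI THZ1 replicate 3 or Y79 THZ1 replicate 2 (adjusted p from 0.0565 to 0.229). It was also lost with no filter (adjusted p = 0.0571), with only the compared groups (adjusted p = 0.16) and with library size (-0.02). GCLM lost its call without WERI THZ1 replicate 2 or 3 or Y79 THZ1 replicate 2 or 3 (adjusted p from 0.0535 to 0.156), and GSS without replicate 2 of either treated group (adjusted p of 0.126 and 0.136). With library size GCLC (0.16, adjusted p = 0.131), GCLM and GSS were not called. Under mitochondrial scaling the edgeR test did not call GCLM (0.25, adjusted p = 0.197), GSS (0.23, adjusted p = 0.102) or KEAP1 (0.17, adjusted p = 0.168). Nor did it call GCLM (adjusted p = 0.0961) or GSS (adjusted p = 0.0655) with only the compared groups fitted. The main fit thus had 4 genes higher and 3 lower, where 67.1% of all genes were called, 31.0% higher and 36.1% lower. Cultures did not overlap for 5 of the 10 genes and for 68.2% of all genes. GSR (-0.01, adjusted p = 0.881), TXNRD1 (-0.13, adjusted p = 0.0963) and SLC7A11 (-0.16, adjusted p = 0.563) were not called. Without WERI THZ1 replicate 2 the higher genes were 1, and without Y79 THZ1 replicate 2 or 3 they were 2. Scaled by library size, 0 genes were higher and 5 lower.

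Levels of different genes can be compared only per length, so CPM were divided by the exon length of each gene in kilobases. This length joins the annotated exons of all transcripts of a gene, and it can exceed that of the mRNA in the cells. Which transcripts were expressed was not determined, so the order below depends on this choice of length. In WERI controls the order of mean levels was TXNRD1 at 25.0 CPM per kb, KEAP1 at 23.0, GSR at 18.2, NFE2L2 at 11.5, NQO1 at 6.96, GCLC at 6.61, GSS at 5.33, GCLM at 4.49, HMOX1 at 1.54 and SLC7A11 at 0.772. NQO1 and GCLC were the neighbours whose cultures overlapped. After THZ1 the WERI order was TXNRD1 (19.7 CPM per kb), NQO1 (12.9), GSR (12.5), GSS (10.3), NFE2L2 (4.61), KEAP1 (4.06), GCLM (2.57), GCLC (1.93), SLC7A11 (0.473) and HMOX1 (0.392). KEAP1 dropped from the second place to the sixth, and NQO1 came second. Neighbours that overlapped were NQO1 and GSR, NFE2L2 and KEAP1, and SLC7A11 and HMOX1.

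Y79 controls ran in the order TXNRD1 (29.3 CPM per kb), KEAP1 (27.5), GSR (20.7), GSS (7.56), NFE2L2 (6.86), GCLM (5.80), GCLC (5.68), NQO1 (2.94), HMOX1 (1.07) and SLC7A11 (0.582). TXNRD1 overlapped KEAP1, GSS overlapped NFE2L2, and GCLM overlapped GCLC. Treated Y79 ran in the order TXNRD1 (18.0), GSS (12.9), GSR (12.3), KEAP1 (4.83), NQO1 (4.68), GCLM (3.27), NFE2L2 (2.80), GCLC (2.63), SLC7A11 (0.422) and HMOX1 (0.234). Here GSS and GSR overlapped, as did KEAP1 and NQO1, GCLM and NFE2L2, and NFE2L2 and GCLC. By this length TXNRD1 led in each of the 4 groups, and SLC7A11 and HMOX1 were the lowest in each.

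The partners and regulators of NRF2 were divided, with 5 of 12 tested genes higher and 5 lower in WERI (median 0.01) and 4 higher and 5 lower in Y79 (median -0.13). Beside them, 27.7% of all tested genes were called higher and 37.2% lower in WERI, and 29.9% and 38.5% in Y79. CUL3, the scaffold of the ligase that KEAP1 serves, went from 95.5 to 36.3 CPM in WERI (log2 -1.40, adjusted p = 2.49e-09) and from 97.4 to 39.8 CPM in Y79 (log2 -1.29, adjusted p = 2.9e-09). BTRC, the adaptor of a second ligase that acts on NRF2, fell by 1.25 on the log2 scale in WERI and by 0.54 in Y79. RBX1, the RING subunit shared by both ligases, was called higher in WERI (0.55) and stood at 0.00 in Y79 (adjusted p = 1.0), or at -0.35 and called lower without Y79 THZ1 replicate 2. In WERI its call was lost without WERI DMSO replicate 1 (0.51, adjusted p = 0.0542) or without WERI THZ1 replicate 3 (0.49, adjusted p = 0.0564). GSK3B, the kinase that marks NRF2 for BTRC, was at -0.13 in WERI (adjusted p = 0.325; called lower, -0.16, without Y79 THZ1 replicate 2) and rose by 0.58 in Y79, where it was at 0.03 and not called with library size, or was lower at -1.13 with mitochondrial scaling. RBX1 in WERI was at -1.35 on that scale.

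The small MAF proteins, which NRF2 needs to bind DNA, stood higher on the TMM scale where they changed. MAFG went from 121 to 196 CPM in WERI (log2 0.70) and from 69.9 to 182 CPM in Y79 (log2 1.38), and with mitochondrial scaling it was lower, at -1.20 and -0.33. MAFK went from 12.1 to 29.1 CPM in WERI (log2 1.27) and from 14.4 to 58.5 CPM in Y79 (log2 2.02), and with mitochondrial scaling stood at -0.63 and 0.32. It shares 809 exon bases, 18.1% of its exon length, with TMEM184A on the opposite strand, and the libraries do not keep strand. MAFF was low and not called, at 0.15 (adjusted p = 0.618) and 0.43 (adjusted p = 0.146). BACH1, the repressor that competes for the same sites and guards HMOX1, went from 148 to 193 CPM in WERI (log2 0.39, adjusted p = 0.00141) and from 121 to 161 CPM in Y79 (log2 0.41, adjusted p = 0.000997). With library size alone BACH1 was at -0.06 and -0.15 and was not called. BACH2, its relative, fell by 1.88 in WERI and by 1.36 in Y79. NFE2L1, the NRF2-related factor that responds to proteasome loss, fell by 0.63 in WERI and by 1.44 in Y79.

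Of 30 other NRF2 target genes, 27 were tested, 12 were higher and 6 lower in WERI (median 0.22), and 13 were higher and 4 lower in Y79 (median 0.70), beside medians of -0.11 and -0.09 for all genes. Of all tested genes, 27.7% were called higher and 37.2% lower in WERI, and 29.9% and 38.5% in Y79. The ferritin chains FTL (log2 1.78 in WERI and 1.96 in Y79) and FTH1 (1.65 and 1.74), which store iron, and the aldose reductase AKR1B1 (1.46 and 1.59) had the largest rises among those named. With mitochondrial scaling FTL, FTH1 and AKR1B1 were at -0.12, -0.25 and -0.44 in WERI, the last one called. In Y79 they were at 0.25, 0.03 and -0.12 on that scale, none called. FTH1 shares 62.4% of its exon length with BEST1 on the opposite strand. UGDH, which makes UDP-glucuronate for conjugation, fell by 0.97 and by 1.60. SRXN1, the reductase of over-oxidised peroxiredoxins, was at -1.44 in WERI (adjusted p = 0.0852, or 1.82e-07 without Y79 THZ1 replicate 1) and fell by 3.19 in Y79. Nearly all of its exons (85.0%) are shared with AL121758.1 on the same strand. With both summed, the log2 change was -1.40 ± 0.106 in WERI (adjusted p = 6.42e-08) and -2.54 ± 0.114 in Y79 (adjusted p = 3.95e-10).

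In the list for glutathione supply and turnover, 4 of 13 genes were higher and 2 lower in WERI (median 0.10), and 5 higher and 4 lower in Y79 (median 0.47). The shares over all tested genes were 27.7% higher and 37.2% lower in WERI, and 29.9% and 38.5% in Y79. CBS, the first enzyme from homocysteine to cysteine, rose by 0.85 in WERI and 1.02 in Y79, and it has a near-identical copy, CBSL, with which it may exchange reads. CTH, the next enzyme of that route, fell by 0.57 and by 1.08. CHAC2, which degrades glutathione, fell by 1.48 and by 2.16. GGT7, of the gamma-glutamyltransferase family, rose by 1.42 and 1.43, and SLC25A39, the carrier of glutathione into mitochondria, by 1.27 and 0.99. With mitochondrial scaling all 3 genes that rose were lower in both lines, CBS at -1.05 and -0.69, GGT7 at -0.48 and -0.28, and SLC25A39 at -0.63 and -0.72.

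Enzymes that use glutathione or remove peroxides were mostly higher on the TMM scale. Of 27 tested, 18 were higher and 5 lower in WERI (median 0.65), and 19 higher and 5 lower in Y79 (median 0.78). Among all tested genes 27.7% were called higher and 37.2% lower in WERI, and 29.9% and 38.5% in Y79. PRDX2 rose by 1.60 in WERI and 1.84 in Y79, the mitochondrial PRDX3 by 1.50 and 1.33, and GSTM2, a glutathione transferase that shares exon bases with GSTM1 and GSTM4, by 1.62 and 1.89. GPX4, which reduces lipid peroxides with glutathione and guards against ferroptosis, rose by 1.44 and 1.66. With mitochondrial scaling these were -0.30 (PRDX2), -0.40 (PRDX3), -0.28 (GSTM2) and -0.47 (GPX4) in WERI, and 0.13, -0.38, 0.18 and -0.05 in Y79. Lower genes were GPX8, a peroxidase of the endoplasmic reticulum (-1.32 and -1.72), and the mitochondrial glutaredoxins GLRX2 (-0.67 and -0.39) and GLRX5 (-0.50 and -1.01). GLRX2 in Y79 was not called with DESeq2 (-0.29, adjusted p = 0.0527), with RLE factors (-0.29, adjusted p = 0.0644), or without Y79 DMSO replicate 2 (adjusted p = 0.0656) or Y79 THZ1 replicate 3 (adjusted p = 0.0533). MGST2, a microsomal transferase, was lower in WERI (-0.90) and not called in Y79 (-0.52, adjusted p = 0.0566), where it passed without Y79 DMSO replicate 1 (-0.64, adjusted p = 0.0389) or Y79 THZ1 replicate 2 (-0.79, adjusted p = 0.00388). TXNRD3, a relative of TXNRD1, was not called in WERI (-0.31, adjusted p = 0.086; -0.34, adjusted p = 0.0184 without Y79 THZ1 replicate 2) and fell in Y79 (-0.48).

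NADPH, on which GSR, TXNRD1 and NQO1 depend, had 6 of 10 supply genes higher and 2 lower in WERI (median 0.46), and 7 higher and 2 lower in Y79 (median 0.57). Over all tested genes the shares were 27.7% higher and 37.2% lower in WERI, and 29.9% and 38.5% in Y79. Mitochondrial enzymes were among both, with ME3 (1.27 and 1.55), IDH2 (0.81 and 1.11) and NNT (0.78 and 0.60) higher and ME2 (-0.29 and -0.88) lower. With mitochondrial scaling ME3 was at -0.62 and -0.15, IDH2 at -1.08 and -0.60, and NNT at -1.12 and -1.11. NNT in Y79 was at 0.04 and not called with library size. The cytosolic IDH1 fell by 0.33 and by 0.71, but in WERI it was not called with DESeq2 (-0.25, adjusted p = 0.0703), with RLE factors (-0.25, adjusted p = 0.0756) or without WERI DMSO replicate 1 (-0.29, adjusted p = 0.0605). PGLS, of the pentose phosphate pathway, was at 0.32 in WERI (adjusted p = 0.157) and rose by 0.98 in Y79, or was lower at -0.73 with mitochondrial scaling.

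**Figure D5:**
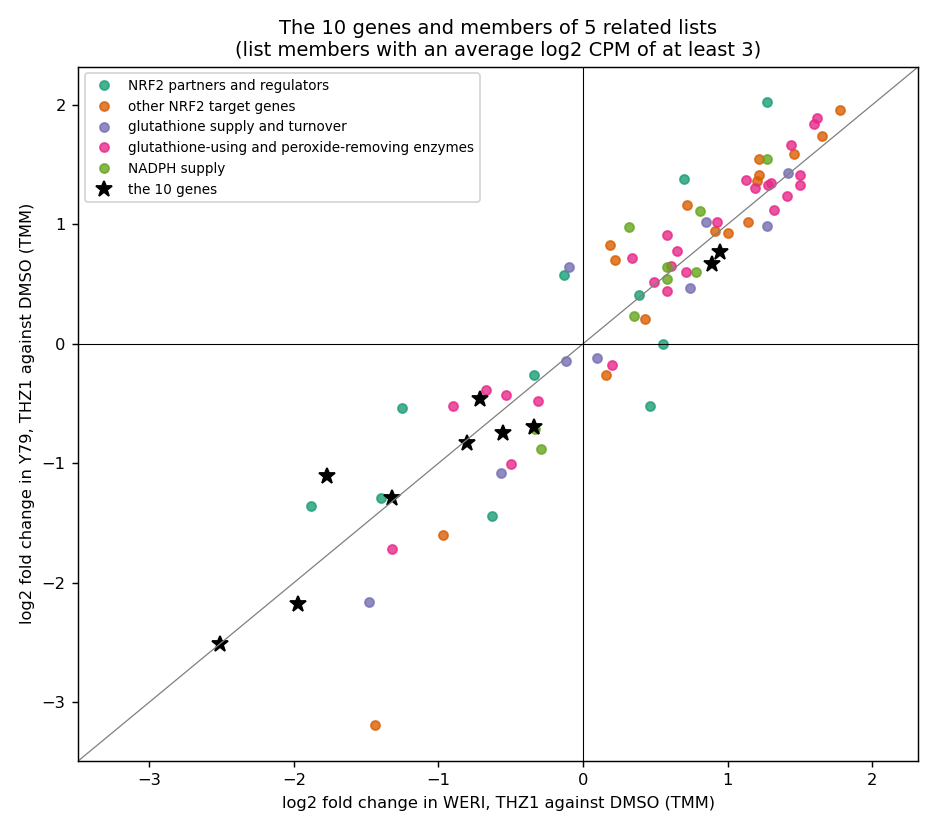
Log2 fold change after THZ1 in Y79 against that in WERI (TMM scaling) for the 10 genes (stars) and 71 genes of the 5 related lists (points) whose average log2 CPM was 3 or more. The diagonal marks equal change. GSS and NQO1 are the 2 stars above 0, among the enzymes that use glutathione, and the other 8 stars lie below 0; on the mitochondrial scale GSS and NQO1 also fall below 0.

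The profile of NFE2L2 over the 4 groups was compared with those of 10121 Ensembl genes (average log2 CPM of 3 or more), as the root mean square distance between centred log2 group means. The closest were ZNF43 (0.03), NOTCH1 (0.03) and NIT1 (0.04). The measure rests on only 4 group means, so that many genes have close neighbours by it. None of the other members of the NRF2 axis described here was among these 3.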

How the data were processed

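RNA was measured by sequencing in 12 cultures, 3 in each of 4 groups, with libraries from a NEBNext Ultra RNA kit per the labels, which keeps no strand. The deposited values are whole-number counts per gene, and no source used here says how the authors aligned and counted reads. The submitters' processing notes name Cufflinks and GRCh38. The table has 27505 features, of which 18844 passed filterByExpr (14865 Ensembl genes and 3979 unannotated loci). Counts were fitted in R 4.3.3 with edgeR 4.0.16 (TMM factors, robust quasi-likelihood, 4 group means, 8 residual degrees of freedom). Two-sided p-values were adjusted by Benjamini-Hochberg over all tested features. The SE was obtained from the log2 fold change and the F statistic. Errors of group means are SD. Printed numbers of genes cover Ensembl genes. The floor of the precision is counting error and the spread between 3 cultures. Ratios of genes used a pseudocount of 0.5 and exact permutation tests. The fitting code was tested on simulated data.

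The 10 genes, the 5 lists and the tests were chosen with earlier results of these data known. Beside the 10 genes, MAFF, MAFG, MAFK, BACH1, CUL3 and SLC3A2 were always named. From each list and line, the text names up to 3 called rises and 3 called falls (average log2 CPM of 3 or more, treated and control cultures apart). SOD2 has several identifiers in the table and was left out. Of the list genes, ABCC3, AKR1C1, AKR1C3, GPX2 and GPX7 did not pass the filter. Alternatives were RLE factors, library size alone, mitochondrial scaling, no filter, at least 1 CPM in at least 3 libraries, DESeq2 1.42.0, the replicate number as a block, only the groups compared, and each library left out in turn. Figures were drawn with matplotlib 3.10.9.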

Additional observations from a re-analysis of the deposited data

Results flagged for a closer look

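For 12 of the 46 named genes (26.1%, where 22.0% of all tested genes were called) the test of the difference itself, the interaction in edgeR's quasi-likelihood model, found THZ1 changes that differed between the lines (Y79 minus WERI, log2). Of the 10 genes these were GCLC (0.66, adjusted p = 0.00451) and TXNRD1 (-0.36, adjusted p = 0.0156). Among partners and regulators they were NFE2L1 (-0.81, adjusted p = 6.28e-05), MAFG (0.68, adjusted p = 0.000504), MAFK (0.75, adjusted p = 0.0137), BACH2 (0.52, adjusted p = 0.0383), BTRC (0.71, adjusted p = 0.00715) and GSK3B (0.71, adjusted p = 0.00593). Among the other lists they were UGDH (-0.63, adjusted p = 0.00176), CHAC2 (-0.68, adjusted p = 0.0152), GLRX5 (-0.51, adjusted p = 0.0346) and ME2 (-0.59, adjusted p = 0.00258). MAFG and MAFK rose more in Y79, and UGDH, CHAC2, GLRX5 and ME2 fell more there. The TXNRD1 difference was not called with mitochondrial scaling (-0.18, adjusted p = 0.426). For the flagged genes outside the 10, the difference was not compared across the other settings or without single libraries. Many of the 46 genes were named for a large called THZ1 change in 1 line or the other in these data. Their share of 26.1% is therefore not like the 22.0% of unselected genes, and nothing is concluded from setting them side by side.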

How the results depend on the processing

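Of 990 refits of the 50 values of the 10 genes, 879 kept their direction and their side of the threshold, 62 lost a call, 28 gained one and 21 changed sign. The precision is limited by 3 cultures per group and, for HMOX1 and SLC7A11, by low counts; floors and intervals cover counting error and culture spread only.

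Counts of the 10 genes changed as follows. With mitochondrial scaling 0 genes were higher after THZ1 in WERI and 0 in Y79, 0 were lower in the difference of the lines, and Y79 against WERI had 0 higher and 5 lower in DMSO and 1 higher in THZ1. With library size alone 0 were higher in Y79 after THZ1, 2 were lower in the difference, and Y79 against WERI had 1 higher and 4 lower in DMSO and 0 higher and 5 lower in THZ1. For Y79 against WERI in DMSO, DESeq2 and the filter of at least 1 CPM each gave 4 lower, and a fit of only the groups compared gave 5 lower in DMSO and 1 higher in THZ1. The cause was not tested.

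Leaving out 1 library gave 2326 to 5190 genes called in the difference of the lines (5190 without Y79 THZ1 replicate 2) and 1 to 3 of the 10 genes lower there. Y79 against WERI had 2 to 5 higher and 2 to 4 lower in DMSO, and 1 to 3 higher and 2 to 4 lower in THZ1.

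Signs that turned were these. With library size the difference between lines was -0.09 for NFE2L2, KEAP1 in Y79 against WERI in THZ1 was -0.02, and the THZ1 changes were -0.30 and -0.13 for MAFF, -0.06 and -0.15 for BACH1 (WERI and Y79) and -0.13 for PGLS in WERI. With RLE factors and with DESeq2, GSR in Y79 against WERI in THZ1 was 0.01. With mitochondrial scaling Y79 against WERI in DMSO was -0.02 for KEAP1, -0.09 for GSR and -0.04 for TXNRD1, and the difference was 0.15 for GCLM and 0.01 for GSS. The THZ1 changes were then, in WERI and Y79, -0.95 and -0.94 (GSS), -1.0 and -1.04 (NQO1), -1.77 and -1.28 (MAFF), -1.20 and -0.33 (MAFG), -1.50 and -1.31 (BACH1), -0.44 and -0.12 (AKR1B1), -1.05 and -0.69 (CBS), -0.48 and -0.28 (GGT7), -0.63 and -0.72 (SLC25A39), -0.47 and -0.05 (GPX4), -0.40 and -0.38 (PRDX3), -1.58 and -0.73 (PGLS), -1.08 and -0.60 (IDH2), -1.12 and -1.11 (NNT), and -0.62 and -0.15 (ME3). In WERI alone they were -0.63 (MAFK), -1.35 (RBX1), -0.12 (FTL), -0.25 (FTH1), -0.30 (PRDX2) and -0.28 (GSTM2), and in Y79 alone -1.13 (GSK3B). Without 1 library the difference reached -0.04 to 0.08 for NFE2L2 and -0.15 to 0.08 for GCLM, Y79 against WERI in THZ1 reached -0.10 to 0.06 for GSR, SLC7A11 there reached -0.38 to 0.01, and MAFF in WERI -0.11 to 0.38.

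Same-numbered cultures of 2 groups did not deviate together (0 of 12 correlations over 0.1), so the numbers were not used as pairs. With the replicate number as a block, 9394 genes were called in WERI, 9891 in Y79, 2768 in the difference, and 9384 and 9709 between the lines in DMSO and THZ1. The 10 genes kept their calls except GSR in Y79 against WERI in DMSO (0.19, adjusted p = 0.0574). The ratios of genes are unchanged by the block, and with 3 pairs their smallest p is 0.25.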

Other observations

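SRXN1 and AL121758.1, which share exons on the same strand, exchanged counts in 1 library. SRXN1 had 1326, 1179 and 1289 counts in the Y79 controls, and 0, 126 and 105 counts in the treated Y79 cultures. AL121758.1 had 131 counts in the culture where SRXN1 had 0, and 6 and 18 in the other two. Summed, the treated Y79 cultures had 131, 132 and 123 counts, and the SE of the SRXN1 decrease in Y79 went from 0.73 to 0.114. With the sum, the difference between the lines was -1.13 ± 0.153 (adjusted p = 0.00027 by edgeR), where SRXN1 alone gave -1.75 ± 0.957 (adjusted p = 0.254). The sum was chosen after the data were seen.

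CBS and its copy CBSL divided their counts unevenly between cultures of 1 group. In WERI controls CBS had 2428, 2572 and 2134 counts and CBSL 1292, 1430 and 2204. With both summed, the THZ1 change was 0.71 in WERI and 1.09 in Y79, against 0.85 and 1.02 for CBS alone.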
